A study of Mus musculus with 4 samples.

Results

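Melanotropes are the Pomc-transcribing endocrine cells of the pituitary's intermediate lobe, and 2374 nuclei of this type with few immediate-early transcripts were described here, of 35615 nuclei that passed the filters (6.67%, exact Clopper-Pearson 95% interval 6.41 to 6.93). A nucleus was taken when it had at least 500 detected genes and under 5% mitochondrial molecules. It also needed at least 1 unique molecular identifier (UMI, a count of 1 captured RNA molecule) in 3 or more of the 8 genes Pax7, Oacyl, Col19a1, Nrg3, Nrg3os, Grik1, Tafa1 and Grm8, with Pax7 or Oacyl among them. The summed UMIs of the 8 immediate-early genes Fos, Fosb, Junb, Jun, Ier2, Egr1, Atf3 and Nr4a1 had to be under 10. The nuclei were thus chosen by the UMIs of these 16 genes, so their values are given only as a description. Nrg3os lies antisense to Nrg3 and whether the counting used strand is not stated by any source used here, so reads of the pair cannot be told apart with certainty.

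Pomc encodes a precursor that proprotein convertases cut into different hormones in different cells. Corticotropes of the anterior lobe use mainly prohormone convertase 1 (Pcsk1) and release ACTH, whereas melanotropes also use prohormone convertase 2 (Pcsk2), which cuts further towards α-MSH and β-endorphin. The transcription factor Pax7 sets melanotrope identity on a programme that both cell types share through Tbx19, and hypothalamic dopamine restrains melanotropes through the Drd2 receptor. Immediate-early genes encode mostly transcription factors that are transcribed shortly after a stimulus, and they also respond to tissue handling.

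The study profiled single nuclei from pituitary glands of UM-HET3 wild-type mice, a stock of mixed genetic background that is used in ageing research. There were 4 libraries, each a pool of nuclei from 3 glands, and their labels give 22 months of age for a male and a female pool and 5 months for another male and female pool. Where a sentence lists 4 values, they stand in the order 22-month males, then 22-month females, then 5-month males, then 5-month females, unless it says otherwise. All groups were untreated as far as the labels say, and all glands were snap frozen before nuclei were prepared with a commercial kit and libraries made with 10x 3' chemistry. With 1 library in each group, a difference between single groups has no replicate behind it.

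The deposited matrices held 13595 barcodes in the library labelled 22-month males, 8509 in that labelled 22-month females, 8343 in that labelled 5-month males and 7765 in that labelled 5-month females, with 33328821 to 65773807 UMIs per library. Melanotropes carried a median of 5474 and 6333 UMIs in the libraries labelled 22-month males and 22-month females, against 3965 and 5641.5 in those labelled 5-month males and 5-month females. Sex-chromosome transcripts in these nuclei went against the labelled sex of the libraries labelled 22-month males and 5-month females. They matched the labelled sex of the libraries labelled 22-month females and 5-month males. Xist, the RNA of the inactive X chromosome, was at 3203 and 2637 CPM (UMIs per 1000000 UMIs of the summed nuclei) in melanotropes of the libraries labelled 22-month males and 22-month females, against 0 and 0.26 CPM in those labelled 5-month males and 5-month females. Uty, a Y-linked gene, was at 0.324 and 0.89 CPM in the libraries labelled 22-month, against 234 and 252 CPM in those labelled 5-month. Labelled age therefore separates the libraries in the same way as these transcripts do, and the 2 cannot be told apart. A pair of libraries shared 14 to 43 barcode sequences, and 1 barcode was a melanotrope in both libraries labelled 22-month. A doublet caller (Scrublet with 1 threshold for all libraries) marked 26.2%, 19.8%, 16.2% and 26.2% of the melanotropes in the 4 libraries, against 10.5 to 14.2% of all nuclei. That threshold was 0.135, the median of the caller's own thresholds of 0.569, 0.123, 0.141 and 0.128. It was thus far below the caller's own for the library labelled 22-month males. The marked nuclei were kept, and the values without them are given in the closing section.

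The promoters of Pomc and Pcsk2 are shown because the first gene encodes the precursor and the second the convertase that separated melanotropes most strongly from corticotropes among the processing genes. Both are RefSeq sequences of GRCm38.p6, 250 bases before to 50 after the gene's start, and capitals mark each CANNTG, the E-box that basic helix-loop-helix factors such as Neurod1 bind.
Pomc promoter, chr12:3954695-3954994, plus strand: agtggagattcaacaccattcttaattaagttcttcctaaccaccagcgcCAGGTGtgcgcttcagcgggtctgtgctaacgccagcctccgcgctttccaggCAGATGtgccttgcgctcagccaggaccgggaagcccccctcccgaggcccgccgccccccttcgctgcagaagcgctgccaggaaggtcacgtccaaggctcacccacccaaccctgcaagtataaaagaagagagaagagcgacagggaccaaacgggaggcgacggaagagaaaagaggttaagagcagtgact
Pcsk2 promoter, chr2:143545883-143546182, plus strand: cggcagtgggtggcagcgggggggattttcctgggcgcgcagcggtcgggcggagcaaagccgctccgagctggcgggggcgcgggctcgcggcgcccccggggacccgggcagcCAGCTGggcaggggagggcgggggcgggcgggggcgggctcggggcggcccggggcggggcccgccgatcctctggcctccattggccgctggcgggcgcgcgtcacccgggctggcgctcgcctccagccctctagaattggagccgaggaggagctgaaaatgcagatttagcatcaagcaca
The Pomc window held 2 E-boxes and the Pcsk2 window held 1. Neither window held TAATCC on either strand, so no E-box overlapped it. Of 32851 mouse promoters of this length, 72.3% held CANNTG and 7.06% held TAATCC, both strands searched. These letters describe the windows and are not binding sites shown by these data. Pomc itself (ENSMUSG00000020660) lies on mm10 chromosome 12 from 3954951 to 3960642, and Pcsk2 (ENSMUSG00000027419) on chromosome 2 from 143546156 to 143816285.

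Melanotropes with low immediate-early transcripts made up 10.5% of nuclei (1272 of 12066, exact 95% interval 10.0 to 11.1) in the library labelled 22-month males. Their share was 5.03% (409 of 8130, 4.57 to 5.53) in the library labelled 22-month females, 2.46% (197 of 7999, 2.13 to 2.83) in that labelled 5-month males and 6.68% (496 of 7420, 6.13 to 7.28) in that labelled 5-month females. The intervals, here and below, cover counting error only, and with 1 pool per group the shares have no test. The limit on immediate-early UMIs set much of the low share in the library labelled 5-month males. There 241 of 438 melanotropes (55.0%) were past the limit, against 6 of 502 (1.20%) in the library labelled 5-month females, 1 of 1273 (0.0786%) in that labelled 22-month males and 2 of 411 (0.487%) in that labelled 22-month females. Without the limit the shares were 10.6% and 5.06% for the libraries labelled 22-month (males, then females), against 5.48% and 6.77% for those labelled 5-month.

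**Figure D1:**
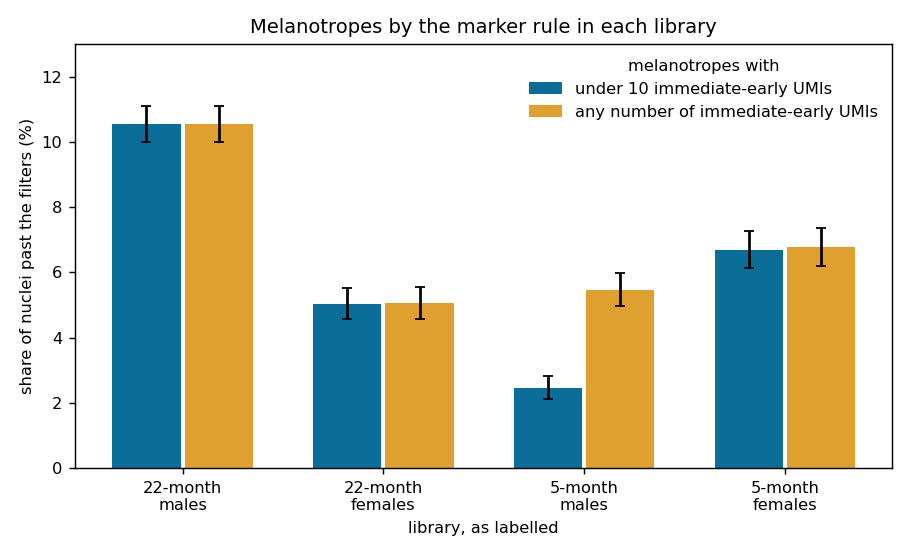
Share of nuclei past the filters (%, vertical axis) that are melanotropes under the limit of 10 immediate-early UMIs, and without that limit, in each of the 4 libraries by label, with exact 95% binomial intervals. The library labelled 5-month males goes from the lowest share with the limit (2.46%) to 5.48% without it, while the other libraries hardly move.

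The label can be checked only on genes the rule did not use, here Pomc among the melanotrope markers, and Pomc was at 28055 to 74468.5 CPM in these nuclei, against 9570 to 25638 CPM in corticotropes and 1183 to 4144 CPM in the other nuclei. As a description, the 6 melanotrope markers Pomc, Pax7, Oacyl, Col19a1, Grik1 and Tafa1 summed to 31132 to 77704 CPM in the 4 libraries, against 9646 to 25698 CPM in corticotropes and 1195 to 4172 CPM in the other nuclei. The other 5 are genes of the rule, so the choice of nuclei favoured them, though it required no single one of them in every nucleus. Pax7 was at 173 and 252 CPM in melanotropes of the libraries labelled 22-month males and 22-month females, against 275 and 228 CPM in those labelled 5-month males and 5-month females, and a Pax7 UMI was found in 64.4%, 77.3%, 67.5% and 74.6% of them. Oacyl, an acyltransferase family member that marks melanotropes here, was at 1164 and 1549 CPM in the libraries labelled 22-month, against 2038 and 1082 CPM in those labelled 5-month. Exactly 3 of the 8 markers were found in 6.29%, 3.42%, 11.2% and 4.03% of melanotropes in the 4 libraries, and all 8 in 3.62%, 11.5%, 3.05% and 9.48%, shares that also follow depth. Corticotropes were the 375 nuclei outside the melanotrope rule with a UMI in 2 or more of Tbx19, Crhr1 and Avpr1b, including Crhr1 or Avpr1b. Those 3 genes, which chose the corticotropes and not the melanotropes, summed to 106 to 137 CPM in melanotropes, against 503 to 668 CPM in corticotropes and 2.27 to 9.96 CPM in the other nuclei. Tbx19, the factor of both Pomc lineages, made most of the melanotropes' sum, at 88.9 and 88.4 CPM in the libraries labelled 22-month, against 125 and 114 CPM in those labelled 5-month males and 5-month females.

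RNA of other hormone cells was present as well. The somatotrope markers Gh and Ghrhr summed to 20871 to 57300 CPM in melanotropes, against 36456 to 137896 CPM in the other nuclei, which include somatotropes, and the lactotrope markers Prl and Drd2 to 6230 to 43650 CPM, against 9530 to 72149 CPM. Gonadotrope markers summed to 37.7 to 140 CPM, against 114 to 327 CPM in the other nuclei, and thyrotrope markers to 89.2 to 133 CPM, against 130 to 304 CPM. Markers of pituicytes summed to at most 1.30 CPM in melanotropes, of macrophages to 5.45 to 9.45 CPM, of fibroblasts and mural cells to 5.45 to 12.2 CPM, of endothelial cells to 11.6 to 26.5 CPM and of stem cells to 23.1 to 28.5 CPM. In the other nuclei these 5 lists summed to 2.07 to 3.41, 8.69 to 19.1, 16.8 to 27.1, 17.6 to 43.7 and 14.2 to 27.8 CPM. The stem markers thus reached the level of the other nuclei. The part of hormone RNA from other cells in the levels below was not tested, and the level in the other nuclei is printed beside only some of the genes that turn on a label.

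The marker threshold separated nuclei that differed sharply in genes it did not use. Nuclei just inside it, with exactly 3 of the 8 marker genes, had median Pomc levels of 40625, 24522, 84468 and 39367 CPM in the 4 libraries. Nuclei just outside it, with 2, had 4812, 1628, 6796 and 7151 CPM. The limit on immediate-early UMIs fell within a continuous range instead. In the library labelled 5-month males, 33 nuclei with 8 or 9 immediate-early UMIs had median levels of 78459 CPM for Pomc and 1698 CPM for Pcsk2, and the 31 nuclei with 10 or 11 had 77228 and 1687 CPM.

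Transcripts of the 8 immediate-early genes were few but not absent. They summed to 63.6 and 77.7 CPM in melanotropes of the libraries labelled 22-month males and 22-month females, against 742 and 108 CPM in those labelled 5-month males and 5-month females. No immediate-early UMI was found in 67.3% and 65.5% of the melanotropes in the libraries labelled 22-month, against 32.0% and 61.9% in those labelled 5-month males and 5-month females. The library labelled 5-month males was thus the highest even below the limit. The same 8 genes summed to 1358 CPM in its corticotropes and 308 CPM in its other nuclei, against 71.1 to 131 CPM in corticotropes and 46.4 to 51.3 CPM in other nuclei of the other libraries.

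**Figure D2:**
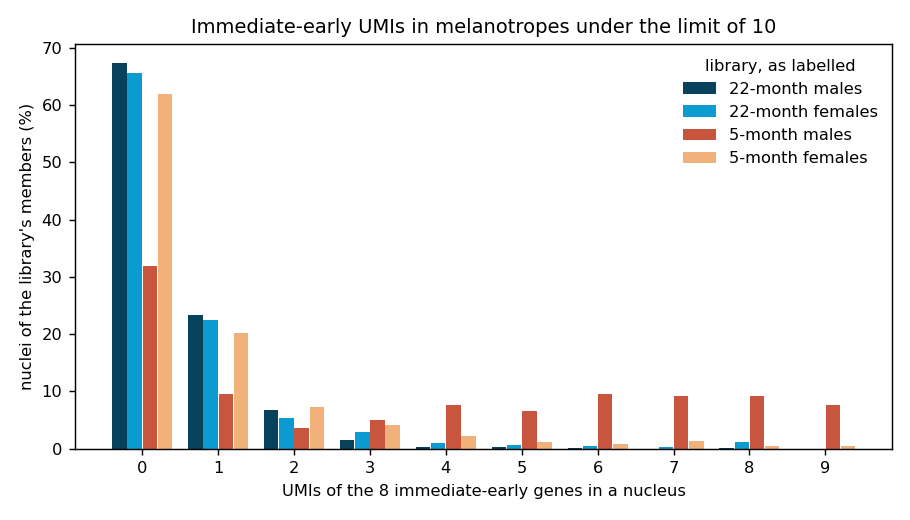
Share of the melanotropes of each library (%, vertical axis) by the number of UMIs of the 8 immediate-early genes in a nucleus (horizontal axis), for nuclei under the limit of 10. In 3 libraries the share falls away above 0, and in the library labelled 5-month males it stays at 6.60 to 9.64% from 4 to 9 UMIs.

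Low and high nuclei could be compared within the library labelled 5-month males alone, since no other library held 20 high nuclei, and the comparison has no replicate. The intervals on its ratios treat each UMI as independent and leave out the spread between nuclei. It set 197 low nuclei (median 3965 UMIs) beside 241 high nuclei (median 4710 UMIs), and the limit selects on depth as well as on transcripts. Of 4637 genes with at least 100 counts over both and more than 3 on each side, other than those of the rule, 9 (0.194%) differed by more than 2-fold, and the median log2 ratio of low over high was -0.03, with a 5th percentile of -0.46 and a 95th of 0.38. Most of these 4637 genes therefore lay close between the 2 groups of nuclei, and genes with fewer counts were not in this comparison. The 9 were Cdh13, a cadherin, which was higher in low nuclei with a ratio of 2.17 (exact 95% interval 1.47 to 3.25), and Rgs2, Midn, Wasf1, Fstl4, H3f3b, Dpp10, Nr3c1 and Txnip, which were lower. Rgs2, an inhibitor of G-protein signalling, was at 21.0 CPM in low nuclei and 58.7 CPM in high nuclei, a ratio of 0.358 (0.208 to 0.587). H3f3b, which encodes a replacement histone, was at 512 CPM in low nuclei and 1092 CPM in high nuclei, a ratio of 0.469 (0.423 to 0.520).

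A further 22 immediate-early genes that the rule did not use were summed. They came to 1300 CPM in low nuclei and 2373 CPM in high nuclei of that library, a ratio of 0.548 (0.513 to 0.585). Btg2, an antiproliferative early-response gene, was at 634 CPM in low nuclei and 1179 CPM in high nuclei (ratio 0.538, 0.490 to 0.591). Nr4a2, an orphan nuclear receptor of the Nr4a family, was at 129 CPM in low nuclei and 240 CPM in high nuclei (ratio 0.538, 0.434 to 0.662). Dusp1, a phosphatase that switches off MAP kinases, and Crem, a cAMP-responsive factor, had ratios of 0.511 and 0.557. Arc had 2 UMIs in low nuclei and 27 in high nuclei (ratio 0.114, 0.0131 to 0.454), the lowest ratio of the genes named here. Of the 22 genes 20 had a UMI, 9 had an interval wholly below equality, and the intervals of the other 11 included it, such as Sik1 at 1.01 (0.623 to 1.60) and Ier5 at 0.735 (0.467 to 1.14). How many of all genes compared had an interval off equality was not counted, so these numbers describe the list alone. Of the 8 markers of the rule, 1 had an interval below equality, 4 had one above it and 3 included it.

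Pomc was at 74468.5 CPM in low nuclei and 59700 CPM in high nuclei of this library, a ratio of 1.25 (1.24 to 1.26). Pcsk2 was at 2169 CPM in low nuclei and 1573 CPM in high nuclei (1.38, 1.30 to 1.46), while Pcsk1 was at 33.6 CPM in low nuclei and 60.0 CPM in high nuclei (0.560, 0.361 to 0.848). Among the 8 markers of the rule, Pax7 had a ratio of 1.04 (0.887 to 1.22), Oacyl of 0.966 (0.912 to 1.02) and Nrg3 of 1.05 (0.983 to 1.13), intervals that include equality. Nrg3os, Tafa1, Col19a1 and Grm8 were higher in low nuclei at 1.54, 1.52, 1.37 and 1.33, and Grik1 was lower at 0.864 (0.773 to 0.964). These intervals cover counting error over nuclei of 1 pool and carry no test of the 2 states.

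Within melanotropes thinned to 1000 UMIs per nucleus, genes were ranked by the lowest ratio of variance to mean over the 4 libraries, and Pomc came next after Gh. This ratio rises with a gene's mean where nuclei differ in level, so the ranking follows abundance as well as spread. In the library labelled 22-month females, Prl (22.9) and Malat1 (15.4) had higher ratios than Pomc. The variance of Pomc was 16.5, 14.4, 22.6 and 21.7 times its mean in the 4 libraries, against 2.12, 3.36, 1.87 and 2.11 times for Pcsk2. Per nucleus, Pomc spanned 17032 CPM at the 10th percentile, 41719 at the median and 81452 at the 90th in the library labelled 22-month males. The median was 29844 CPM in that labelled 22-month females, against 82169 CPM in that labelled 5-month males and 49548 CPM in that labelled 5-month females. Nnat, the imprinted gene neuronatin, and Nrg1, a neuregulin growth factor, were among the 7 most spread in that ranking, at 2.75 to 8.98 and 2.76 to 3.84 times their means.

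Melanotropes were then compared with corticotropes, the other class that transcribes Pomc, on sums of counts per library with the library as a block. Among the genes of the lists, Pcsk2, Chga and the receptors for dopamine and GABA were higher in melanotropes, and Pcsk1, the glucocorticoid receptor Nr3c1 and Neurod1 were lower. In all, 791 of 11621 genes tested were higher (6.81%) and 1041 lower (8.96%) at an adjusted p under 0.05 (edgeR quasi-likelihood test, Benjamini-Hochberg adjusted), counts that include 8 higher and 4 lower genes of the 2 marker rules. With any 1 library left out, 456 of the higher and 575 of the lower genes passed every time. The median log2 fold of all genes tested was 0.00. Both classes come from the same 4 libraries, corticotropes numbered 143, 54, 102 and 76, and no limit on immediate-early UMIs was set on them.

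**Figure D3:**
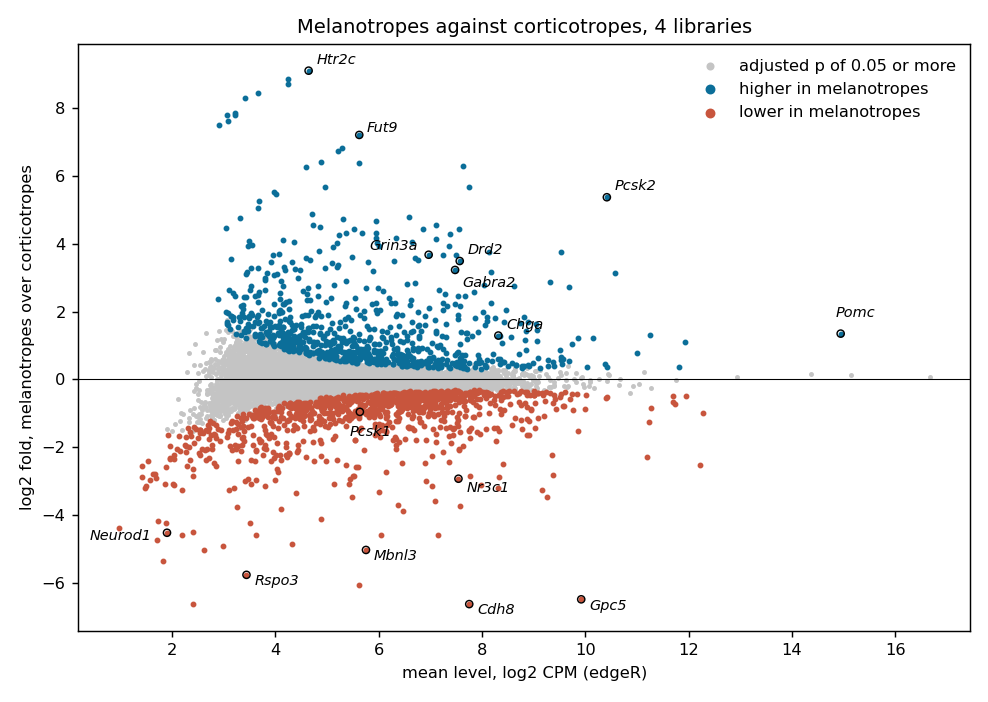
Log2 fold change of melanotropes over corticotropes (vertical axis) against mean log2 CPM (horizontal axis) for the 11621 genes tested, with genes at an adjusted p under 0.05 coloured and selected genes named. Pcsk2 and Drd2 lie far above 0 and Cdh8, Gpc5 and Nr3c1 far below it.

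Genes that act on the Pomc product came first. Pomc was at 36018, 28055, 74468.5 and 42109 CPM in melanotropes, against 9570, 12956, 23472 and 25638 CPM in corticotropes. All 4 melanotrope values lay above all 4 corticotrope values, with a log2 fold change of 1.35 ± 0.16 (SE derived from the test's F statistic, n = 4 libraries, edgeR adjusted p = 1.56e-05). Pcsk2 was at 2160, 4261, 2169 and 1708 CPM in melanotropes, against 38.1, 61.6, 48.7 and 92.6 CPM in corticotropes. The groups were far apart, with a log2 fold change of 5.37 ± 0.23 (edgeR adjusted p = 5.81e-10), and the other nuclei, at 67.1 to 139 CPM, resembled the corticotropes in level. A Pcsk2 UMI was found in 97.0 to 99.0% of melanotropes and 15.7 to 25.9% of corticotropes per library, at median depths of 3965 to 6333 and 4429 to 6944.5 UMIs. After thinning to 1000 UMIs these shares were 74.8 to 89.7% of melanotropes and 0 to 4.20% of corticotropes.

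Of 14 tested genes of Pomc processing and secretory granules, 5 were higher in melanotropes and 2 lower, and their median log2 fold was 0.19, against 0.00 for all genes. Chga, a chromogranin of the granule core, was higher by 1.29 ± 0.11 on the log2 scale (edgeR adjusted p = 8.75e-07). Scg5, the chaperone of prohormone convertase 2, was higher by 0.50 and Pcsk1n, which encodes an inhibitor of prohormone convertase 1, by 0.63. Pcsk1 was at 40.8, 34.1, 33.6 and 38.7 CPM in melanotropes, against 42.7, 73.4, 118 and 90.8 CPM in corticotropes. It was lower in each library, if barely in that labelled 22-month males, with a log2 fold change of -0.96 ± 0.21 (edgeR adjusted p = 0.00557). Prcp, a carboxypeptidase that can cut α-MSH, was lower at -1.33, a call that was lost without the library labelled 5-month males (log2 fold -1.22, adjusted p = 0.103) and too low in counts to be tested without either library labelled 22-month. Cpe and Pam, which trim and amidate the peptides, had log2 folds of 0.01 and 0.13, and Chgb and Scg2 of 0.12 and 0.34, none past the test. The other 6 of the 7 calls passed with every library left out.

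Among 10 tested lineage factors outside the marker rules, 2 were higher in melanotropes and 2 lower, with a median log2 fold of -0.06. Neurod1, a helix-loop-helix factor of corticotropes, was at 0.54, 0.297, 0 and 1.30 CPM in melanotropes, against 17.3, 9.47, 15.6 and 16.3 CPM in corticotropes (log2 fold change -4.52 ± 0.55, edgeR adjusted p = 2.38e-05). Nr3c1, the glucocorticoid receptor through which corticosterone feeds back on corticotropes, was at 45.4, 59.0, 28.4 and 65.4 CPM in melanotropes, against 316, 469, 438 and 358 CPM in corticotropes. Every melanotrope value lay far below the lowest corticotrope value, and the log2 fold change was -2.93 ± 0.16 (edgeR adjusted p = 5.25e-09). Sox2, a factor of stem cells, was higher by 1.20, which was lost without the library labelled 22-month males (log2 fold 0.90, adjusted p = 0.147). Pitx1 and Lhx3, factors of the pituitary in general, had log2 folds of -0.13 and 0.01, neither past the test.

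Of 18 tested members of the melanotrope receptor list outside the marker rules, 8 were higher in melanotropes, none was lower, 10 did not pass, and the median log2 fold was 0.40. Crhr1 and Avpr1b of this list chose the corticotropes and were left out of these counts. As a description, their log2 folds were -3.62 and -5.38, lower in melanotropes. Drd2 was at 329, 319, 288 and 260 CPM in melanotropes, against 39.0, 14.2, 8.69 and 36.3 CPM in corticotropes. The lowest melanotrope library was above the highest corticotrope library, with a log2 fold change of 3.49 ± 0.22 (edgeR adjusted p = 2.81e-08). Gabra2, a subunit of the GABA-A receptor, was at 287, 319, 250 and 246 CPM in melanotropes, against 40.0, 21.3, 12.2 and 36.3 CPM in corticotropes (log2 fold change 3.23 ± 0.19, edgeR adjusted p = 1.48e-08). Its partner subunits Gabrg1 and Gabra4 were higher by 3.38 and 1.16. Htr2c, a serotonin receptor, was at 21.0, 69.1, 16.8 and 18.7 CPM in melanotropes and had no UMI in any corticotrope sum, which puts it at least 26.1-fold higher with a floor of 3 counts over the corticotropes of the 4 libraries. The sex steroid receptors Pgr and Esr1 were higher by 0.84 and 0.59, of which Esr1 lost the call without the library labelled 22-month females (log2 fold 0.36, adjusted p = 0.0503).

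**Figure D4:**
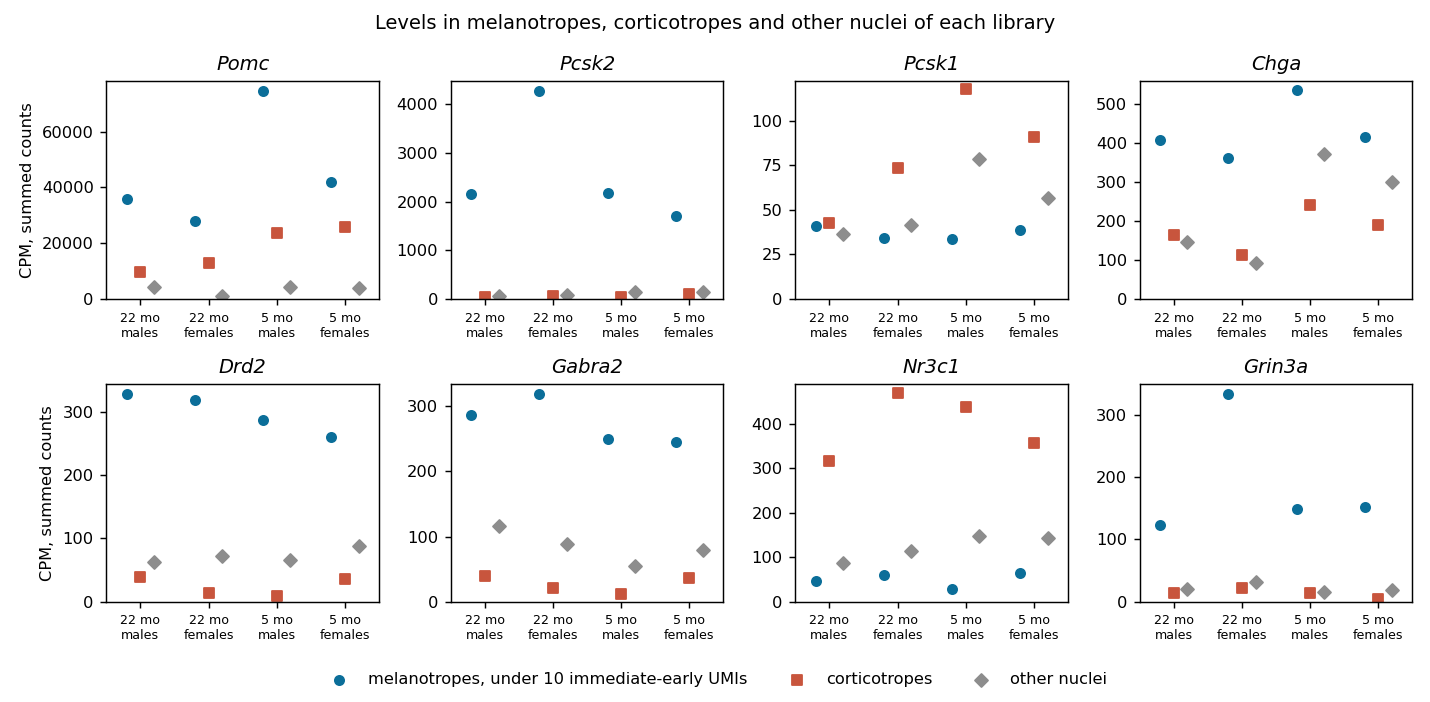
Level (CPM, linear axes from 0) of Pomc, Pcsk2, Pcsk1, Chga, Drd2, Gabra2, Nr3c1 and Grin3a in melanotropes, corticotropes and other nuclei, 1 point per library. Pcsk2, Drd2, Gabra2 and Grin3a separate melanotropes from corticotropes in every library, and Nr3c1 does so in the other direction.

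Channels and glutamate receptors were mixed. Of 16 tested calcium and sodium channel genes, 6 were higher and 1 lower, with a median of 0.29. Cacna1a, the pore of the P/Q-type calcium channel, was at 353, 445, 398 and 381 CPM in melanotropes, against 104, 111, 67.8 and 154 CPM in corticotropes (log2 fold change 1.85 ± 0.16, edgeR adjusted p = 5.32e-07). Scn2a, a sodium channel pore, was higher by 1.77, Cacna2d2, Cacnb4 and Cacnb2, auxiliary calcium channel subunits, by 1.36, 1.18 and 1.03, and Cacna1i, a T-type pore, by 1.34, which was lost without the library labelled 22-month males (log2 fold 1.17, adjusted p = 0.0616). The auxiliary subunit gene Cacna2d3 was lower, at -2.13 ± 0.16. Of 17 tested glutamate receptor genes, 6 were higher and 3 lower, with a median of 0.38. Grin3a, an NMDA receptor subunit, was at 123, 334, 149 and 152 CPM in melanotropes, against 14.5, 21.3, 13.9 and 3.63 CPM in corticotropes (log2 fold change 3.68 ± 0.21, edgeR adjusted p = 8.94e-09). Gria4, an AMPA receptor subunit, was higher by 1.44, and Grik3 and Grin1 by 1.16 and 1.09. Of the glutamate receptor calls, 5 of 9 passed with any library left out. Gria2 (0.41) was lost without the libraries labelled 22-month males (adjusted p = 0.0509), 5-month males (0.164) or 5-month females (0.0773). Grm3 (-0.82) was lost without those labelled 22-month males (0.0598) or 5-month females (0.0578), and Grm7 (-0.59) without those labelled 22-month males (0.0884), 22-month females (0.291) or 5-month females (0.147).

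Of 18 tested clock genes, 1 was higher and 6 lower, and the list's median was -0.44. Npas2, a partner of the clock's transcriptional activator, was at 46.5, 49.5, 65.1 and 43.4 CPM in melanotropes, against 22.7, 16.6, 20.9 and 3.63 CPM in corticotropes (1.56 ± 0.24 on the log2 scale, edgeR adjusted p = 0.000292). Among the repressors of the clock, Cry2 was lower at -0.97 ± 0.14, Per3 at -0.80 ± 0.12 and Bhlhe41 at -0.79 ± 0.15. Rorb was lower at -0.44. Per1 was lower at -1.01, which was lost without the library labelled 5-month females (log2 fold -0.60, adjusted p = 0.120). Nr1d2 was lower at -0.44, lost without the libraries labelled 22-month females (adjusted p = 0.203), 5-month males (0.0931) or 5-month females (0.163), and at 0.41 (adjusted p = 0.496) after thinning.

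The unfolded protein response list had 3 higher and no lower genes of 16 tested, with a median of 0.20. Hspa5, the main chaperone of the endoplasmic reticulum, was at 280, 252, 326 and 264 CPM in melanotropes, against 202, 152, 243 and 209 CPM in corticotropes. The lowest melanotrope value was just above the highest corticotrope value, with a log2 fold change of 0.48 ± 0.11 (edgeR adjusted p = 0.00493). Calr (0.55) and Sdf2l1 (1.10) were lost without the 5-month male-labelled library (adjusted p = 0.0507 and 0.0539). Of 10 tested immediate-early genes outside the rule, Ier5 and Jund were higher at 2.44 and 0.47 and Per1 was lower, and none of the 3 calls passed with every library left out. Jund was lost without either library labelled 22-month (males 0.101, females 0.0965, as adjusted p) or that labelled 5-month males (0.119), and Ier5 was too low in counts to be tested without that labelled 22-month males. None of 3 tested cell cycle genes and none of 5 hormone genes of other cell types passed.

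Outside the lists, genes with some of the largest folds are given here. Cdh8, a cadherin, was at 6.91, 4.74, 3.15 and 2.60 CPM in melanotropes, against 400, 746, 528 and 449 CPM in corticotropes (log2 fold change -6.62 ± 0.21, edgeR adjusted p = 2.91e-11). Gpc5, a cell surface glypican, was at 39.5, 13.3, 15.8 and 20.5 CPM in melanotropes, against 2349, 2286, 1858 and 1571 CPM in corticotropes (-6.48 on the log2 scale). Rspo3 and Rspo2, secreted amplifiers of Wnt signalling, were lower at -5.76 and -4.73, and Rspo3 had 13, 0, 0 and 4 UMIs in all melanotropes of the 4 libraries. In the other direction, Fut9, a fucosyltransferase, was at 48.2, 106, 59.9 and 63.6 CPM in melanotropes and had 1 UMI in all corticotropes, a ratio of 168 (exact 95% interval 30.1 to 6636). Gpr6, an orphan G-protein-coupled receptor, was at 14.0, 21.1, 32.6 and 4.93 CPM in melanotropes, at least 12.7-fold higher than in corticotropes, where it had no UMI. Vwa5b2, Trpc7 (a calcium-permeable channel), Fgfr4 (a fibroblast growth factor receptor), Vax1 (a homeobox factor) and Adamts18 (a secreted protease) likewise had no UMI in corticotropes and were at least 20.1-, 10.3-, 10.1-, 9.22- and 7.65-fold higher in melanotropes.

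The libraries labelled 22-month were compared with those labelled 5-month on melanotrope sums, with labelled sex as a covariate, which leaves 2 libraries on each side and 1 residual degree of freedom. At an adjusted p under 0.05 (edgeR), 449 of 14282 genes were higher (3.14%) and 240 lower (1.68%) on the 22-month side, counts that include 1 higher and 6 lower gene of the rule. DESeq2 called 73 higher and 10 lower. Without labelled sex in the model and with all 4 libraries kept, edgeR called 62 higher and 13 lower. Fits with a library left out also lack that term, so a call lost there cannot be put down to the library alone. In edgeR, 60 higher and 7 lower genes passed whichever library was left out. All 6 tested Y-linked genes were lower and of 473 X-linked genes 31 were higher and 12 lower. Of 13778 autosomal genes, 417 were higher and 222 lower. Both libraries labelled 22-month carried Xist, so none of these differences can be told apart from a difference between Xist and Y-transcript libraries.

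Much of the upward set was more abundant outside melanotropes. Of the 449 higher genes, 117 (26.1%) were above the other nuclei in both libraries labelled 22-month, compared with 40.2% of all genes tested. Of the 240 lower genes, 150 (62.5%) were above the other nuclei in both libraries labelled 5-month, compared with 34.9% of all. Reln, a secreted glycoprotein, shows the first kind. It was at 139 and 211 CPM in melanotropes of the libraries labelled 22-month males and 22-month females, against 3.15 and 2.08 CPM in those labelled 5-month males and 5-month females (log2 fold change 6.41 ± 0.28). In the other nuclei it was at 401 and 737 CPM in the libraries labelled 22-month, against 1.74 and 1.98 CPM in those labelled 5-month, so the level in melanotropes was below that of the rest of the gland on the side where it was high. Grm5, a metabotropic glutamate receptor, followed the same layout, at 121 and 129 CPM against 4.20 and 29.1 CPM in melanotropes and at 359 and 366 CPM against 19.2 and 82.6 CPM in the other nuclei, with a log2 fold change of 2.71. The part of RNA from other cells in such genes was not tested.

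**Figure D5:**
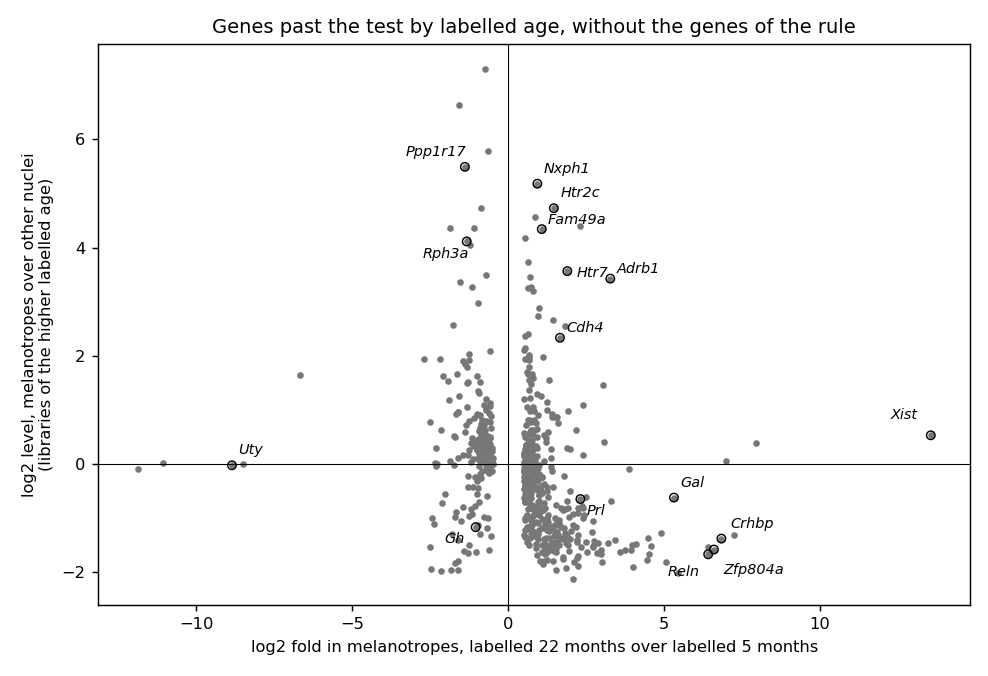
Log2 fold change of libraries labelled 22-month over those labelled 5-month in melanotropes (horizontal axis) against log2 of the level in melanotropes over other nuclei on the side where the gene was higher (vertical axis, 0.1 CPM added to both), for genes at an adjusted p under 0.05 outside the rule. Reln lies far right and below 0 on the vertical axis, and Cdh4 and Rph3a lie above it.

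A condition added after the data had been seen asked for at least 2 times the level of the other nuclei in both libraries of the higher side, and 36 higher genes (8.02%, compared with 6.03% of all genes tested) and 36 of the 240 lower genes (compared with 5.14% of all genes tested) met it. A gene's own change bears on whether it meets the condition, so these shares are a description. Among them Cdh4, a classical cadherin, was at 67.4 and 46.6 CPM in melanotropes of the libraries labelled 22-month males and 22-month females, against 17.9 and 16.9 CPM in those labelled 5-month males and 5-month females. The sides did not overlap, the other nuclei ran from 8.31 to 11.2 CPM, and the log2 fold change was 1.66 ± 0.22 (edgeR adjusted p = 4.33e-07). Rph3a, which encodes rabphilin, a protein of vesicle exocytosis, was at 11.3 and 13.9 CPM in the libraries labelled 22-month, against 34.7 and 30.6 CPM in those labelled 5-month, with other nuclei at 1.45 to 2.08 CPM. It was lower by -1.33 ± 0.26 on the log2 scale (edgeR adjusted p = 0.000792), and both genes passed with any library left out.

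Other genes of this kind lost their calls in some fits with a library left out, which also lacked the labelled sex term. Fam49a (1.08) and Ppp1r17 (-1.38), a phosphatase inhibitor, were lost without the library labelled 5-month females (log2 fold 0.96, adjusted p = 0.0756, and -1.47, adjusted p = 0.0624). Calb1, the calcium buffer calbindin, was higher by 0.94 and lost without the libraries labelled 5-month males or 5-month females (adjusted p = 0.0699 and 0.0659). Htr7, a serotonin receptor, was higher by 1.90 and lost without the libraries labelled 22-month females (log2 fold 1.07, adjusted p = 0.270) or 5-month males (1.34, 0.107).

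The hormone products themselves did not pass this test. Pomc had a log2 fold of -0.79 ± 0.27 (edgeR adjusted p = 0.0918), with its 74468.5 CPM in the library labelled 5-month males above the other 3 libraries, and Pcsk2 had 0.69 ± 0.22 (adjusted p = 0.0537), with its 4261 CPM in the library labelled 22-month females above the rest. Of 15 processing and granule genes, 1 was lower (Pcsk1n, -0.65), and of 12 lineage factors none passed. The list medians were 0.01 and -0.06, against -0.01 for all genes tested. Of 22 receptor genes 4 were higher (Htr2c, Adrb1, Esr1 and Pgr), of 19 channel genes 3 were higher and 1 lower, of 17 glutamate receptor genes 5 were higher and 1 lower, of 17 unfolded protein response genes 2 were higher, of 19 clock genes 1 was lower, and none of 6 cell cycle genes passed. Apart from Grm5, none of these calls passed with every library left out. Without the library labelled 22-month females, all 4 receptor, all 4 channel and 4 of the 6 glutamate receptor calls were lost. Without that labelled 5-month males the same numbers were 4, 4 and 3, without that labelled 5-month females 4, 3 and 5, and without that labelled 22-month males 1, 0 and 3. Htr2c had 69.1 CPM in the library labelled 22-month females beside 16.8 to 21.0 CPM in the other 3, and its log2 fold of 1.47 was 0.23 without that library and 1.23 and 1.38 without either library labelled 5-month, none past the test.

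Of 13 tested immediate-early genes outside the rule, 4 were lower on the 22-month side, namely Btg2, Jund, Dusp1 and Ier5, and the list's median was -0.12. All 4 calls were lost without the library labelled 5-month males, where Btg2 was at -0.15 (adjusted p = 0.917), Jund at -0.21 (0.878), Ier5 at -0.32 (0.889) and Dusp1 at 0.03 (0.989). Leaving out the library labelled 22-month males also ended the calls of Dusp1 (0.0872) and Ier5 (0.0799), and leaving out that labelled 22-month females that of Ier5 (0.601). The 22 further genes together summed to 404 and 478 CPM in melanotropes of the libraries labelled 22-month, against 1300 and 418 CPM in those labelled 5-month males and 5-month females, so the high value sat in 1 library. RNA of other hormone cells also differed in melanotropes, with Prl higher by 2.32 and Fshb and Gh lower by -1.83 and -1.04 on the log2 scale, and without the library labelled 5-month females each lost its call (adjusted p = 0.0595, 0.175 and 0.272). Gh also lost it without any other of the libraries, with log2 folds of -0.80 to -1.24 over the 4. The median per nucleus of Prl in the other nuclei was 68640 and 35019 CPM in the libraries labelled 22-month, against 9768 and 5472 CPM in those labelled 5-month. That of Gh was 24193 and 13167 CPM, against 88726.5 and 45847 CPM. The part of this RNA that came from other cells was not tested.

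Labelled sex, females over males with labelled age as a covariate, gave fewer calls. Each labelled sex held 1 library with Xist and 1 with Uty, so this compares labels and not female with male nuclei. None of the 6 sex-chromosome genes checked (Xist, Tsix, Uty, Eif2s3y, Ddx3y and Kdm5d) passed. Fits with a library left out lacked the labelled age term. Dropping that term alone, with all 4 libraries kept, left 0 calls in edgeR. At an adjusted p under 0.05 (edgeR), 161 of 14282 genes were higher (1.13%) and 50 lower (0.35%) in the libraries labelled females, with 1 higher and 4 lower gene of the rule among them, and DESeq2 called 17 higher and none lower. None passed whichever library was left out. Without the library labelled 5-month females edgeR called 0 genes, where 685 had an unadjusted p under 0.05. The gene with the clearest pattern was Pld5, a phospholipase D family member, at 147 CPM in melanotropes of the library labelled 22-month females and 72.2 CPM in that labelled 5-month females, against 27.5 CPM in that labelled 22-month males and 11.6 CPM in that labelled 5-month males. Other nuclei had 14.5 to 16.6 CPM in all 4, so the other nuclei lay within a narrow range, and the log2 fold change was 2.49 ± 0.19 (edgeR adjusted p = 2.56e-12). It was 1.68 (adjusted p = 0.602) without the library labelled 22-month females and 2.77 (0.134) without that labelled 5-month females. None of the 15 processing and granule genes, 12 lineage factors, 17 unfolded protein response genes, 19 clock genes and 6 cell cycle genes passed. Of 22 receptor genes 3 were higher (Adrb1, Esr1 and Htr2c), a call each of them lost with every one of the 4 libraries left out.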

How the data were processed

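Single-nucleus libraries were processed with Cell Ranger 7.0.1, per the file headers, on mm10, per the submitters' processing notes. Intron counting is not stated by any source used here. Deposited matrices hold raw UMI counts of 32285 genes per barcode and were used without change. The nuclei, gene lists and tests were chosen with earlier results of these data known. Counts were summed per library and class and are printed as CPM of that sum. Tests were edgeR 4.0.16 (R 4.3.3) quasi-likelihood fits (TMM, filterByExpr, Benjamini-Hochberg) on these sums, with DESeq2 1.42.0 as an alternative, so the spread is that between pools. Labels give 1 pool per group, so the spread by label comes from the interaction of age and sex with a prior shared over genes. Each value after ± is the size of the log2 fold divided by the square root of the edgeR F statistic. It rests on that shared prior and is not a standard error of the libraries alone. Median prior degrees of freedom were 41.1 beside 1 residual by label, and 11.6 beside 3 residual against corticotropes. Fits by label with a library left out had the compared label as the only term. Named were the 12 largest folds in each direction among called genes with at least 20 counts on the higher side and the same direction in every library (labels: both libraries of a side above both of the other), and called list members; the text takes from these. Low against high nuclei was planned as an edgeR test and could not be fitted, since 1 library held enough high nuclei. On simulated sums with 100 genes changed 2-fold, 52 were recovered by age, 65 by sex and 79 against corticotropes. Of the genes left unchanged there, 8, 6 and 9 were called. The simulation gave all genes the same dispersion, estimated from these sums, so these numbers do not give the recovery in the data themselves. Doublets were scored with Scrublet in scanpy 1.11.5. Positions are from GENCODE, for 32158 genes. A few genes of the lists enter the counts but are not reported here by name.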

Additional observations from a re-analysis of the deposited data

Results flagged for a closer look

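The share of melanotropes with low immediate-early transcripts moved in opposite directions by labelled age in the 2 labelled sexes. The share in the library labelled 22-month males was 4.28 times that in the library labelled 5-month males, and the share in the library labelled 22-month females was 0.753 times that in the library labelled 5-month females. Without the limit on immediate-early UMIs the ratios were 1.93 for the libraries labelled males and 0.747 for those labelled females. With nuclei thinned to 1000 UMIs they were 1.73 and 0.836. The shares were then 5.33% for 22-month males against 3.09% for 5-month males, and 3.17% for 22-month females against 3.80% for 5-month females, as labelled. The whole rule was applied again to the thinned counts, so nuclei above the immediate-early limit at full depth could pass. The number taken rose from 197 to 246 in the library labelled 5-month males and fell in every other library. The thinned shares are thus not those of the same nuclei at equal depth. The difference was not tested, since each group is 1 pool. The sex-chromosome transcripts go against the labelled sex of the libraries labelled 22-month males and 5-month females.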

How the results depend on the processing

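The share of 6.67% was 6.28% with 4 or more markers, 6.32% with under 5 immediate-early UMIs and 7.37% without that limit. It was 5.74% without called doublets and 4.01% after thinning to 1000 UMIs with the rule applied to the thinned counts. The low over high ratio of further immediate-early genes (0.548) was 0.331, 0.490 and 0.498 under the alternatives run; another scaling, DESeq2, no filter and leaving out a library were not run for it, since 1 library entered. Against corticotropes, 1832 calls were 1176 with DESeq2, 995 without the library term, 742 after thinning and 1322 to 1576 with a library left out; with no filter on low counts 1128 were higher and 949 lower, against 791 and 1041. By labelled age, 689 calls were 83 with DESeq2, 75 without the sex term, 62 without doublets, 150 with 4 or more markers, 73 after thinning, 384 with under 5 immediate-early UMIs, 320 without that limit and 159 to 378 with a library left out. By labelled sex, 211 calls were 17, 0 (428 genes at an unadjusted p under 0.05), 3, 3, 7, 162 and 25 under the same settings and 0 to 147 with a library left out. Of the named genes' alternatives, 57 of 781 lost the call against corticotropes, 377 of 1044 by age and 408 of 556 by sex. Directions turned for Nr1d2 against corticotropes after thinning (0.41), and with a library left out for Cacnb4 (-0.35 to 1.21) and Dusp1 (-2.54 to 0.031) by age and for Adrb1 (-0.83 to 7.38), Htr2c (-0.080 to 1.85), Btg2 (-2.19 to 0.29) and Fshb (-0.12 to 2.22) by sex; the cause was not tested. Against corticotropes the library was a block. By label, no paired analysis was possible because each group is 1 pool. Melanotropes of the library labelled 5-month males, with 952269 UMIs in all, limit the low genes.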
